A study of Mus musculus with 6 samples.

Results

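The 49 genes described here are the ones that carry a cell from G1 through DNA replication and out of mitosis: 9 cyclins, kinases and a phosphatase of G1, 5 E2F transcription factors, 14 genes of S phase and 21 genes of mitosis. They were chosen by name, and 48 of the 49 names were found among the 41721 genes of the count table. The exception was Tyms, thymidylate synthase, which is described apart from the rest through a row whose description names it. All 48 passed the filter on low counts.

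The cells were MASMCs, smooth muscle cells grown from the abdominal aorta of mice, in 3 libraries of Pdk4fl/fl and 3 of Pdk4SMKO cells, and every culture had received angiotensin II (Ang II). Pdk4 encodes pyruvate dehydrogenase kinase 4, which restrains the entry of pyruvate into the mitochondrial citric acid cycle. In both genotypes its exons 4 to 6 lie between loxP sites, and Pdk4SMKO mice also carry the Y-linked transgene Myh11-icre/ERT2, whose Cre is active in smooth muscle cells after tamoxifen. Both genotypes received tamoxifen from 6 weeks of age at 75 mg/kg a day for 5 days, cells were taken from male mice at 10 weeks and used at passage 4 to 8, and Ang II was given at 1 μM for 48 h after 48 h without serum, all by the published methods. The paper states the step without serum for in vitro experiments in general, and the growth protocol in the labels names 10% fetal bovine serum. The labels name Ang II without dose or time, give neither the passage of each culture nor the animal it came from, and do not say that the 3 libraries of a genotype came from separate animals. The p-values therefore measure the spread between these libraries, which may be technical, and the part of passage in any difference was not tested.

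Each library held between 16526044 and 22481670 counted reads, and log2 levels correlated at 0.98 or more within a genotype and at 0.75 or less between genotypes. Pdk4 had 570, 639 and 421 counts in Pdk4fl/fl and 110, 182 and 141 in Pdk4SMKO libraries (log2 fold change -2.34 ± 0.22, SE; adjusted p = 4.49e-06), so the labels and the targeted gene went the same way. Of 8 smooth muscle markers 3 were called lower and 4 higher in Pdk4SMKO (adjusted p under 0.05 and a fold of at least 2). By the same rule 26.5% of all 14085 genes tested were called lower and 32.8% higher. Smtn fell from 280 ± 59.5 to 57.5 ± 10.0 CPM (SD, n = 3 each), Tagln from 253 ± 38.6 to 52.7 ± 29.7 CPM and Cnn1 from 19.5 ± 1.15 to 6.88 ± 6.22 CPM. Acta2, smooth muscle actin, rose from 233 ± 40.8 to 701 ± 74.5 CPM, and Myh11, the smooth muscle myosin whose promoter drives the Cre, had between 8 and 10 counts in Pdk4fl/fl and between 44 and 62 in Pdk4SMKO libraries. Markers of other cells moved with genotype too, in both directions. The summed level of 8 mesothelial markers lay between 74.2 and 99.99 CPM in Pdk4fl/fl and between 723 and 1325 CPM in Pdk4SMKO libraries, with all 7 that were tested higher, led by Krt19 in Pdk4fl/fl and Msln in Pdk4SMKO. That of 6 fibroblast markers lay between 141 and 173 and between 1320 and 2774 CPM, with 3 higher, among them Dcn and Col14a1, and 1 lower. That of 8 macrophage markers lay between 22.7 and 40.1 and between 62.8 and 64.1 CPM, with 6 of 7 tested higher and Cd68, most of the Pdk4fl/fl sum, lower (31.2 ± 8.78 against 4.29 ± 2.18 CPM, SD). Cd14 led that list in Pdk4SMKO (1.65 ± 0.43 against 45.7 ± 11.7 CPM), and Tyrobp, Adgre1, C1qa and C1qb were at 0 in all Pdk4fl/fl libraries. That of 6 endothelial markers fell from between 14.1 and 23.7 CPM to between 2.84 and 5.62 CPM, with both that were tested lower, and most of it was Kdr. Xist, expressed from the inactive X chromosome of female cells, had 3, 4 and 5 counts in Pdk4fl/fl and 610, 347 and 321 in Pdk4SMKO libraries, although the study describes its mice as male. The part of these differences in the results that follow was not tested, and in bulk RNA fewer cells of a type cannot be told apart from less RNA per cell.

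Passage through the cell cycle is driven by cyclin-dependent kinases. D-type cyclins with Cdk4 and Cdk6, and then E-type cyclins with Cdk2, phosphorylate the retinoblastoma protein family and free the E2F factors, which switch on the genes of DNA synthesis. Replication origins are licensed in G1, when Cdc6 and Cdt1 load the ring-shaped MCM2-7 helicase, and geminin blocks Cdt1 once S phase has begun. Genes of G2 and mitosis are repressed by the DREAM complex in early G1. They come on later through the MuvB complex, Mybl2 and Foxm1, acting at promoter elements called CHR and CCAAT box. In a dividing population the S phase genes tend to be expressed together, and so do the mitotic genes.

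In Pdk4SMKO cells these genes did not move as a block. Of the 48 genes, 16 were lower, 11 were higher and 21 were not called, where a call required an adjusted p under 0.05 in edgeR's quasi-likelihood test and a fold change of at least 2. Across all 14085 genes tested the share called was 26.5% lower and 32.8% higher, 59.3% in either direction, so a single call says little about any one gene. Every Pdk4SMKO library lay below every Pdk4fl/fl library for 19 of the 48 genes and above for 13, as they did for 38.3% and 43.5% of all genes. The S phase group lay toward the lower side: 7 of 13 were lower (53.8%) and 2 higher, with a median log2 fold change of -1.12, against 0.12 over all genes. The mitotic group was split, with 7 of 21 lower, 5 higher and 9 not called and a median of -0.22, and its shares of 33.3% lower and 23.8% higher stood near those of all genes. Of the 9 G1 genes 4 were higher and 2 lower, and of the 5 E2F genes 0 were called, although 2 were lower and 1 higher on an adjusted p under 0.05 alone, which 37.1% of all genes passed as lower and 42.0% as higher. These counts rest on TMM scaling: with library size alone the median of all genes moved up by 0.60 on the log2 scale, and 17.0% of all genes were called lower and 43.9% higher. The mitotic genes then became 3 lower and 9 higher (14.3% and 42.9%, near those shares) and the S phase genes 5 lower and 3 higher (38.5% and 23.1%).

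**Figure D1:**
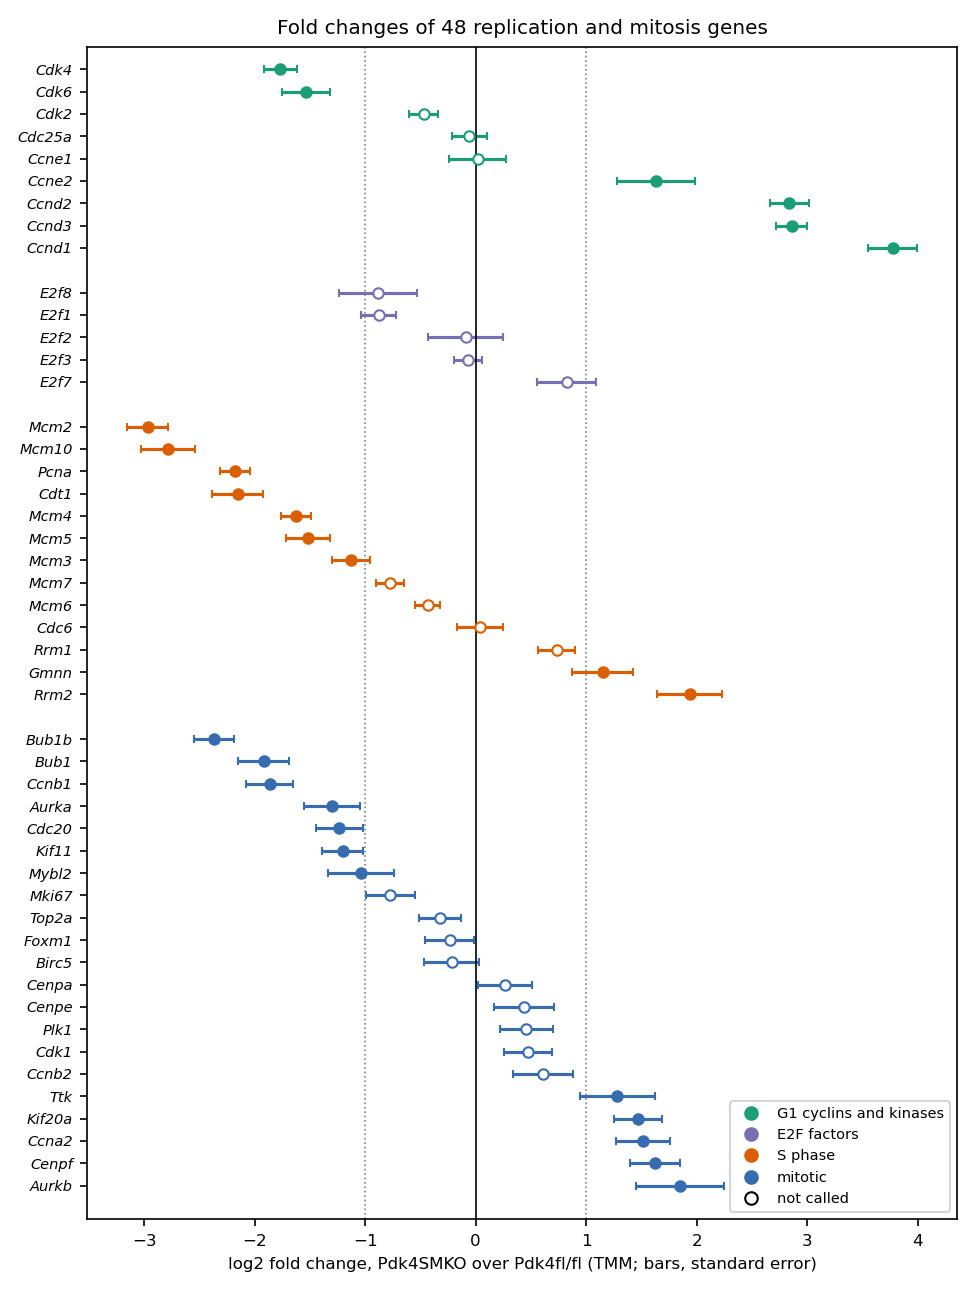
Log2 fold change of each of the 48 genes, Pdk4SMKO over Pdk4fl/fl after TMM scaling, with its standard error as a bar. Filled points are called and open points are not, dotted lines mark a fold of 2, and the S phase genes reach from -2.97 (Mcm2) to 1.94 (Rrm2) and the mitotic genes from -2.36 (Bub1b) to 1.85 (Aurkb).

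One library matters for every value below. Pdk4SMKO replicate 1 lay above the mean of the other Pdk4SMKO libraries for all 21 mitotic genes, all 13 S phase genes, all 5 E2F genes and 8 of 9 G1 genes, that is for 47 of 48 genes, against 48.7% of all genes tested. The excess was 0.81 on the log2 scale at the median of the mitotic genes (1.75-fold, range 0.62 to 1.09) and 0.53 at that of the S phase genes. All 21 mitotic genes exceeded 1.5-fold, as did 30 of the 48, against 9.57% of all genes. Cdk4 was the exception, at -0.07. In the same library the mesothelial marker sum was 1325 CPM against 723 and 829 CPM, and the fibroblast marker sum was 1320 against 2774 and 2561 CPM. The smooth muscle sum was 954 against 842 and 723 CPM, with 5 of 8 markers above the mean of the others. Cnn1 was at 14.0 against 3.58 and 2.99 CPM and Tagln at 86.9 against 37.1 and 34.0 CPM. The macrophage sum was 62.8 against 64.1 and 63.8 CPM, with 6 of 7 tested markers above. The endothelial sum was 5.62 against 2.84 and 4.02 CPM. The part of these differences in the excess was not tested. Without this library 19 of the 48 genes were lower and 9 higher (27.2% and 32.3% of all genes tested), and all 16 genes that had been lower remained so.

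**Figure D2:**
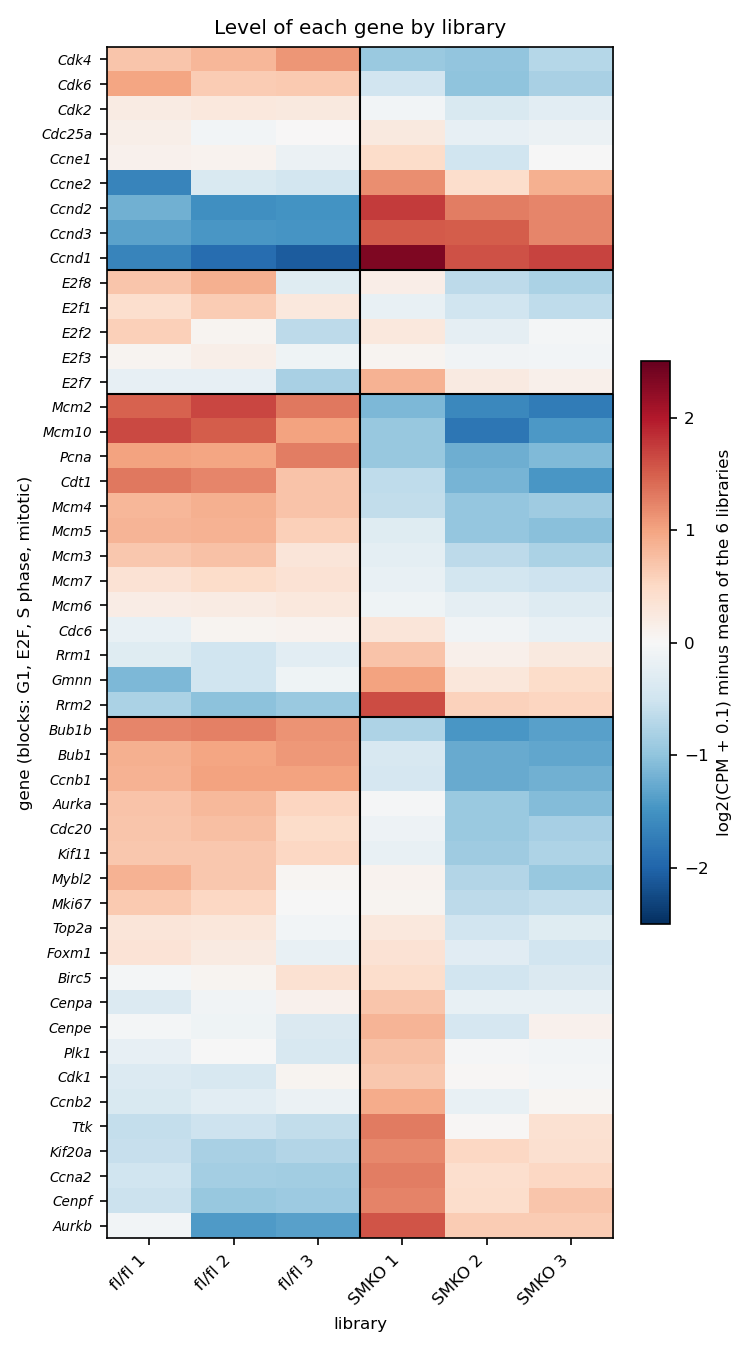
Heat map of the 48 genes over the 6 libraries, coloured by the log2 level of a gene minus its own mean, with G1, E2F, S phase and mitotic genes in blocks from top to bottom and each block ordered by fold change. Red is above and blue below the mean, and in the lowest block Pdk4SMKO replicate 1 is redder or less blue than replicates 2 and 3 in all 21 rows.

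The D cyclins, the regulatory partners of Cdk4 and Cdk6 that couple growth signals to the cycle, had the largest rise among the 48 genes. Ccnd1 stood at 42.5, 35.8 and 31.6 CPM in Pdk4fl/fl libraries and at 673, 404 and 429 CPM in Pdk4SMKO libraries, where CPM is the count scaled to a common TMM-adjusted library total. The genotypes did not overlap and Ccnd1 was 13.7-fold higher (log2 fold change 3.78 ± 0.22, SE; adjusted p = 1.83e-07). Ccnd2 was at 85.1, 67.9 and 69.2 CPM against 658, 476 and 456 CPM, which was 7.16-fold higher (adjusted p = 2.55e-07). Ccnd3 was at 13.7, 12.8 and 12.5 CPM against 102, 99.9 and 81.8 CPM, 7.27-fold higher (adjusted p = 5.97e-08). All 3 D cyclins therefore rose, and their calls held without each library in turn. The annotated spans of Ccnd1 and Ccnd3 overlap Oraov1 and Bysl, and whether reads were counted by strand is not given in the sources used here.

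Their kinases went the other way. Cdk4 stood at 656, 718 and 875 CPM in Pdk4fl/fl and 213, 203 and 245 CPM in Pdk4SMKO libraries, 3.40-fold lower (log2 fold change -1.77 ± 0.15, SE; adjusted p = 1.87e-06). Cdk6 was at 14.3, 11.1 and 11.3 CPM against 5.09, 3.48 and 4.02 CPM, 2.90-fold lower (adjusted p = 9.31e-05), a call that library size alone did not give (-0.93). Neither kinase overlapped between genotypes. The span of Cdk4 overlaps Tspan31, a second expressed gene, and that of Cdk6 overlaps MGP_C57BL6NJ_G0029685, Gm17590 and Gm42435, which together held 525 counts. Per kilobase of gene model, summed D cyclin was 0.105, 0.0801 and 0.0623 of summed Cdk4 and Cdk6 in the Pdk4fl/fl libraries and 3.82, 2.63 and 2.21 of it in the Pdk4SMKO libraries. A ratio within a library does not depend on how libraries are scaled, and here kinase RNA exceeded cyclin RNA in every Pdk4fl/fl library while cyclin RNA exceeded kinase RNA in every Pdk4SMKO library. Within the D cyclins, Ccnd1 made up between 48.5% and 51.9% per kilobase in Pdk4fl/fl and between 63.0% and 68.3% in Pdk4SMKO libraries. These ratios were chosen after the values were seen, and an exact permutation test of 3 libraries against 3 cannot give a p under 0.1, the value each such ratio in the text reached.

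**Figure D3:**
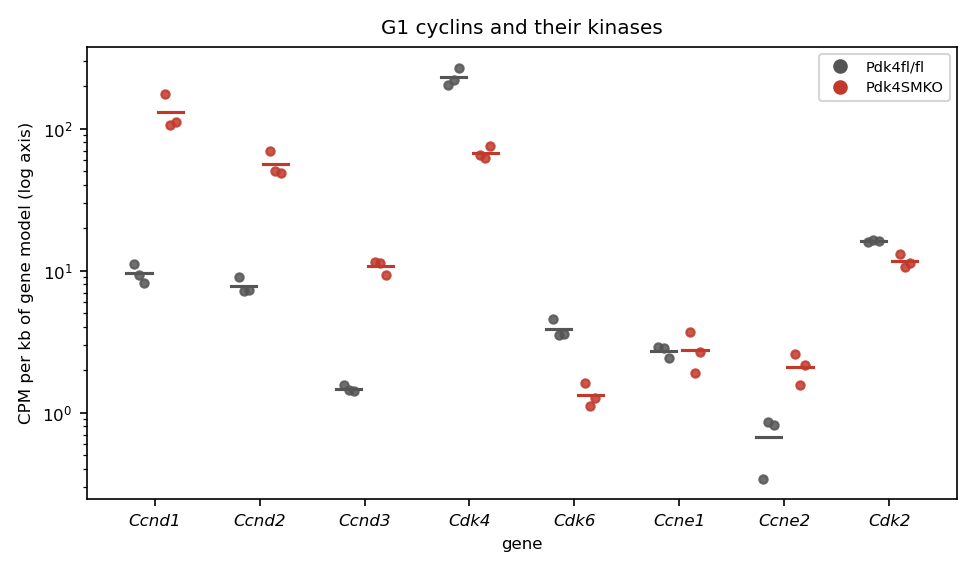
Level per kilobase of the D and E cyclins and of Cdk4, Cdk6 and Cdk2 in each library (points) with the mean of each genotype (line), on a log axis. The 3 D cyclins sit higher and Cdk4 and Cdk6 lower in Pdk4SMKO, and Ccnd1, at 9.55 CPM per kb in Pdk4fl/fl, reaches 131 CPM per kb and passes Cdk4, which stands at 231 and 67.8 CPM per kb.

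The later G1 genes moved less than the D cyclins and Cdk4. Cyclin E2 (Ccne2), a partner of Cdk2 at the entry into S phase, was at 1.20, 3.02 and 2.88 CPM against 9.04, 5.47 and 7.51 CPM, a 3.09-fold rise without overlap (adjusted p = 0.00161), and its span overlaps Ints8. Cyclin E1 (Ccne1) was at 7.24 ± 0.70 and 7.34 ± 2.43 CPM (SD, n = 3 each) with overlapping genotypes (adjusted p = 0.948). Cdk2, the kinase of both, was at 38.6, 40.0 and 39.3 CPM against 31.7, 25.7 and 27.7 CPM. That is a 1.39-fold difference with no overlap (log2 fold change -0.47; adjusted p = 0.00707), under the fold limit and of the opposite sign with library size alone (0.14). Cdc25a, the phosphatase that activates Cdk2, stood at 24.5 ± 1.91 and 23.5 ± 4.02 CPM (SD; adjusted p = 0.758).

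Inhibitors of these kinases are not among the 49 genes. Of 7 CDK inhibitor genes 3 were lower (42.9%) and 2 higher (28.6%), beside 26.5% and 32.8% of all genes. Cdkn1a, which encodes p21, stood at 36.4, 36.6 and 18.5 CPM in Pdk4fl/fl and 297, 221 and 219 CPM in Pdk4SMKO libraries (8.04-fold higher, adjusted p = 2.14e-06). Cdkn2a, the locus of p16 and p19Arf, whose products the gene-level count does not separate, was at 193, 220 and 313 CPM against 51.7, 37.8 and 35.2 CPM (5.83-fold lower, adjusted p = 1.99e-06). Cdkn1b, encoding p27, was 2.96-fold higher (log2 fold change 1.57) and Cdkn2d 2.49-fold lower (-1.31). Cdkn1c was lower at a few counts, with 43, 49 and 44 in Pdk4fl/fl and 3, 9 and 0 in Pdk4SMKO libraries.

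The E2F factors, which stand between the G1 kinases and the S phase genes, changed by less than the fold limit. E2f1, an activator of S phase genes, was at 54.5, 62.7 and 48.5 CPM against 35.6, 28.6 and 26.0 CPM, 1.84-fold lower without overlap (log2 fold change -0.88 ± 0.16, SE; adjusted p = 0.000473). E2f8, a repressor, had the same difference with more scatter, at 9.33, 10.7 and 4.62 CPM against 6.45, 3.63 and 3.29 CPM (-0.88 ± 0.36, SE; adjusted p = 0.0419), and the genotypes overlapped. Without Pdk4SMKO replicate 1 both E2f1 (-1.01) and E2f8 (-1.24) passed the fold limit, and E2f8 did so also without Pdk4fl/fl replicate 3 (-1.17). The other atypical repressor, E2f7, stood at 6.00, 6.04 and 3.93 CPM against 12.7, 8.16 and 7.55 CPM, with every Pdk4SMKO library above every Pdk4fl/fl library (0.83 ± 0.27, SE; adjusted p = 0.0163). With upper-quartile scaling E2f7 passed the fold limit (1.04). Per kilobase, E2f1 exceeded E2f7 by 26.0, 29.7 and 35.3-fold in Pdk4fl/fl and by 8.02, 10.0 and 9.84-fold in Pdk4SMKO libraries. The remaining activators overlapped between genotypes, E2f2 with a log2 fold change of -0.09 (adjusted p = 0.82) and E2f3 with -0.07 (adjusted p = 0.608), and both had a positive sign with upper-quartile or library-size scaling (0.13 and 0.51 for E2f2, 0.14 and 0.53 for E2f3).

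A list of 13 genes held pocket proteins, DREAM subunits, further E2F factors such as E2f6, and the E2F partners Tfdp1 and Tfdp2. Of these 5 were lower and 5 higher (38.5% each), beside 26.5% and 32.8% of all genes. Rb1, the retinoblastoma protein, rose from 6.34 ± 1.46 to 26.7 ± 1.46 CPM (SD, n = 3 each; log2 fold change 2.08, adjusted p = 3.79e-06) and E2f6, a repressor, from 8.50 ± 0.61 to 32.1 ± 1.11 CPM (1.92). The span of Rb1 overlaps Rcbtb2, Lpar6, Gm17233 and Mir687, which together held 5803 counts. Lin54, the subunit that binds the CHR element, fell from 79.4 ± 3.81 to 12.2 ± 0.15 CPM (-2.70), and the histone-binding subunit Rbbp4 from 529 ± 30.7 to 104 ± 4.82 CPM (-2.34).

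In S phase, the genes of origin licensing and of the replication fork fell most. Mcm2, one of the 6 subunits of the MCM2-7 helicase, was at 481, 551 and 428 CPM in Pdk4fl/fl and at 79.2, 56.2 and 51.1 CPM in Pdk4SMKO libraries. It was 7.83-fold lower, the largest fall among the 48 genes (log2 fold change -2.97 ± 0.19, SE; adjusted p = 2.82e-07). Mcm10, which joins the helicase when it is activated, was at 72.6, 66.1 and 46.5 CPM against 11.9, 6.52 and 8.39 CPM, 6.88-fold lower (adjusted p = 2.74e-06). Pcna, the sliding clamp of the replicative polymerases, was at 373, 371 and 453 CPM against 96.7, 79.9 and 87.1 CPM, 4.54-fold lower (adjusted p = 2.58e-07). Cdt1, the loading factor, was at 86.7, 80.2 and 56.3 CPM against 22.2, 15.4 and 12.5 CPM, 4.45-fold lower (adjusted p = 1.25e-05). In each of these 4 genes the lowest Pdk4fl/fl library stood well above the highest Pdk4SMKO library, and the calls held without any single library and under each scaling tried.

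The other MCM subunits fell less, and by unequal amounts. Mcm4 was 3.08-fold lower (200 ± 13.3 against 64.8 ± 8.55 CPM, SD, n = 3 each), Mcm5 2.86-fold (136 ± 13.9 against 47.5 ± 14.2) and Mcm3 2.18-fold (133 ± 20.3 against 61.0 ± 12.2). Mcm3 was not called with upper-quartile scaling (-0.91), and neither Mcm3 (-0.52) nor Mcm5 (-0.91) with library size alone. Mcm7 (1.71-fold; log2 fold change -0.77, adjusted p = 0.000252) and Mcm6 (1.35-fold; -0.43, adjusted p = 0.00496) stayed within the fold limit, although neither overlapped between genotypes, and Mcm6 had the opposite sign with library size alone (0.17). The span of Mcm7 overlaps Cops6, Ap4m1 and Mir106b. The helicase holds one copy of each of its 6 subunits, and the order of their RNA levels per kilobase changed. Mcm2 was the highest and Mcm6 the lowest of the 6 in every Pdk4fl/fl library, 2.62, 2.95 and 2.22-fold apart. In every Pdk4SMKO library Mcm2 was the lowest, 2.03, 2.46 and 2.52-fold under the highest subunit, which was Mcm7 in replicate 1 and Mcm6 in replicates 2 and 3. This lowest place rests on the gene lengths used, 6961 bases for Mcm2 and 3400 for Mcm5. In CPM without that division Mcm5 was the lowest in every Pdk4SMKO library, at 63.8, 40.6 and 38.1 against 79.2, 56.2 and 51.1 for Mcm2. The ratio of Mcm2 to Mcm7 per kilobase was 2.07, 2.21 and 1.84 in Pdk4fl/fl and 0.494, 0.426 and 0.405 in Pdk4SMKO libraries.

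**Figure D4:**
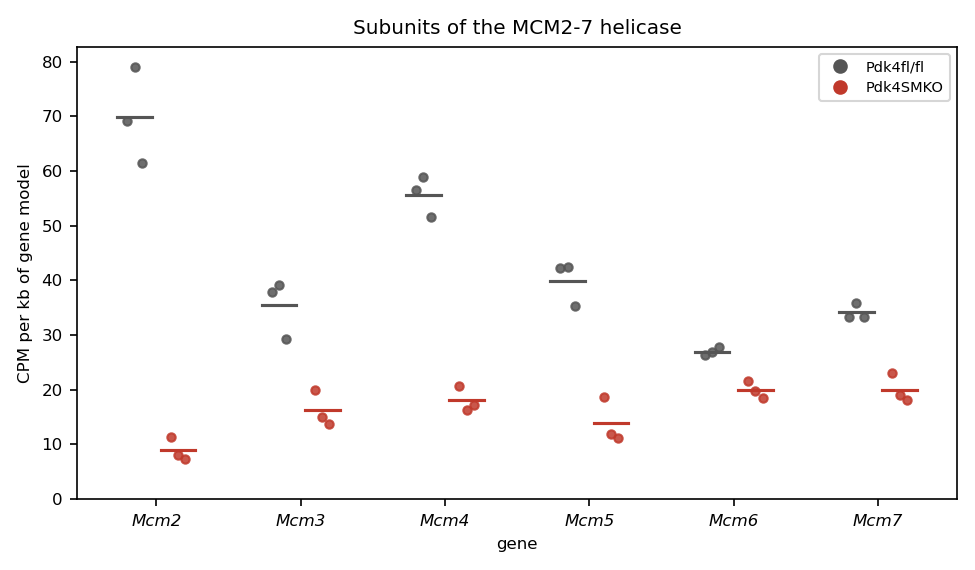
Level per kilobase of the 6 MCM2-7 subunits in each library (points) with genotype means (lines). Mcm2 falls from 69.9 to 8.93 CPM per kb, from the highest of the 6 to the lowest, whereas Mcm6 goes from 27.0 to 20.0 CPM per kb. The lowest place of Mcm2 rests on the division by gene length.

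Another part of the S phase group rose or held its level. Rrm2, the regulatory subunit of ribonucleotide reductase and limiting for deoxynucleotide supply, stood at 9.27, 7.96 and 8.48 CPM in Pdk4fl/fl and 50.5, 24.1 and 23.6 CPM in Pdk4SMKO libraries. It was 3.83-fold higher (log2 fold change 1.94 ± 0.29, SE; adjusted p = 0.000139), and 1.49 on the log2 scale without Pdk4SMKO replicate 1, its highest library. Rrm1, the catalytic subunit of the same enzyme, was at 60.5, 52.8 and 61.7 CPM against 122, 81.3 and 87.8 CPM, 1.66-fold apart without overlap (0.73; adjusted p = 0.00202), and was called with library size alone (1.34). Gmnn, geminin, the inhibitor of Cdt1, was at 5.00, 7.74 and 10.1 CPM against 22.1, 13.4 and 15.1 CPM, 2.22-fold higher (adjusted p = 0.00327). The rise of Gmnn fell under the fold limit without Pdk4fl/fl replicate 1 (0.92) or Pdk4SMKO replicate 1 (0.91). Cdc6, which loads MCM together with Cdt1, was at 7.68 ± 0.82 and 7.89 ± 1.48 CPM (SD) with overlapping genotypes (adjusted p = 0.868).

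The ratio of Cdt1 to its inhibitor Gmnn changed with genotype. Cdt1 exceeded Gmnn per kilobase by 11.6, 6.94 and 3.72-fold in the Pdk4fl/fl libraries and was 0.672, 0.771 and 0.554 of it in the Pdk4SMKO libraries. Which gene is higher in Pdk4SMKO depends on the gene lengths used (2189 bases for Cdt1 and 1465 for Gmnn). The counts there were 506, 310 and 254 for Cdt1 and 504, 269 and 307 for Gmnn. Rrm1 exceeded Rrm2, the other subunit of its enzyme, by 4.52, 4.60 and 5.05-fold and by 1.67, 2.33 and 2.58-fold. Pcna exceeded Rrm2 by 46.5, 53.8 and 61.7-fold and by 2.21, 3.82 and 4.26-fold. In none of these 3 pairs did the genotypes overlap.

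Tyms, which makes thymidylate for DNA synthesis, has no row under its name. A row on chromosome 5 whose description names it (MGP_C57BL6NJ_G0029811, from 29747075 to 29773510) had 488, 654 and 647 counts in Pdk4fl/fl and 542, 337 and 350 in Pdk4SMKO libraries. After scaling this was 39.1 ± 8.68 against 19.2 ± 3.95 CPM (SD, n = 3 each), 2.03-fold lower (log2 fold change -1.02 ± 0.20, SE; adjusted p = 0.000806). The fold fell under the limit without Pdk4fl/fl replicate 3 (-0.84), Pdk4SMKO replicate 2 (-0.92) or Pdk4SMKO replicate 3 (-0.94). This row was looked up after the values were seen and is not counted above.

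A wider list of origin and fork genes, outside the 49, had 16 of 41 lower (39.0%) and 1 higher (2.44%), beside 26.5% and 32.8% of all genes, with a median log2 fold change of -0.62 against 0.12 over all genes. Chaf1b, a chaperone that places histones on new DNA, was 7.61-fold lower (114 ± 12.8 CPM in Pdk4fl/fl, SD, n = 3; log2 fold change -2.93). Fen1, the nuclease that trims Okazaki fragments, fell from 17.4 ± 0.73 to 2.40 ± 1.00 CPM (-2.85), and its span overlaps Tmem258 and Gm10143. The 1 gene called higher was Orc3, a subunit of the origin recognition complex, which rose from 7.30 ± 0.37 to 44.2 ± 5.93 CPM (2.60). Without Pdk4SMKO replicate 1, which stood above the mean of the other Pdk4SMKO libraries for 35 of the 41, the counts were 20 lower and 2 higher.

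The promoters of S phase genes are known for sites of E2F factors, and 5 are shown here because they include, for the S phase and the E2F genes, those with the largest and the smallest fold among the matched genes. RefSeq promoters of GRCm38.p6, running from 250 bases before the start of transcription to 50 after it, could be matched by symbol for 40 of the 49 genes, in 44 windows. Capitals mark the E2F core (TTCCCGC or TTGGCGC), the CCAAT box (CCAAT) and the CHR element (TTTGAA), each sought on both strands. Mcm2 is the S phase gene with the largest fold and Cdc6 the one with the smallest. Mcm5, added after the values were seen, fell and holds a pair of E2F cores. They lie at chr6:88898731-88899030 (minus strand), chr11:98907901-98908200 (plus strand) and chr8:75109259-75109558 (plus strand). E2f8, a repressor that is itself transcribed in S phase, is at chr7:48881547-48881846 (minus strand), and in it the CCAAT box and the E2F core share bases. E2f3, the E2F gene with the smallest fold, has a window at chr13:29986014-29986313 (minus strand) and another, not shown, without any of the motifs.
Mcm2: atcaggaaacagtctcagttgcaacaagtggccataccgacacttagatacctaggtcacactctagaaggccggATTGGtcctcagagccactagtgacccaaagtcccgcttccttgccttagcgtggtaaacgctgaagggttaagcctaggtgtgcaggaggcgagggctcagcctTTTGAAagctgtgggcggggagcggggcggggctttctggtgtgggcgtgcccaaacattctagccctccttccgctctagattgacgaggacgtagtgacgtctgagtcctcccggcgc
Cdc6: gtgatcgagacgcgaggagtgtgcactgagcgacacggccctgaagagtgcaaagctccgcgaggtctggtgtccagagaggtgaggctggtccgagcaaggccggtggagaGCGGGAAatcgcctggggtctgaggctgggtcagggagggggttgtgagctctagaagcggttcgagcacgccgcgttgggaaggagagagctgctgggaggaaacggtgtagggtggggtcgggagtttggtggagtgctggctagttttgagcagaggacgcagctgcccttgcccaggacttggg
Mcm5: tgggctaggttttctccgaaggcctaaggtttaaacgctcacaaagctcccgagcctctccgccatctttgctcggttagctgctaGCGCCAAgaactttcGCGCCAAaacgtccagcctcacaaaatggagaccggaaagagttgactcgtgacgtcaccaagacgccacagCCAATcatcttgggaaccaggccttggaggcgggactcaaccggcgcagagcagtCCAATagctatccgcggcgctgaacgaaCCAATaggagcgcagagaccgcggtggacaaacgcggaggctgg
E2f8: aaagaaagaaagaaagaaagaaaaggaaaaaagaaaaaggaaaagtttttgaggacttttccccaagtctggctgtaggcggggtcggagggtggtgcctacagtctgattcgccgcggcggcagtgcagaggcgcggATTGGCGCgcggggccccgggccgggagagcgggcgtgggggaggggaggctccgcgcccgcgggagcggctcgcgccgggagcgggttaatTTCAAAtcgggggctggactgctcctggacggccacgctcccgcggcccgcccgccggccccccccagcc
E2f3: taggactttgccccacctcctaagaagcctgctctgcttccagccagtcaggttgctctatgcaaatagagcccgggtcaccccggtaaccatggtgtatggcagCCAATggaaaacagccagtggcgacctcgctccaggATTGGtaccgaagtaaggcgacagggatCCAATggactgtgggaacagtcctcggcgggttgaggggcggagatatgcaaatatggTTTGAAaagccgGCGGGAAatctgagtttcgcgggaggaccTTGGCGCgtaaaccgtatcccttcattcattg

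An E2F core stood in 8 of 13 windows of S phase genes (61.5%), in 4 of 7 of E2F genes (57.1%) and in 3 of 17 of mitotic genes (17.6%), against 6.81% of all 32851 promoters. A CCAAT box stood in 10 of the 13 S phase windows (76.9%), against 37.4% of all promoters, and a CHR element in 1 of 13, that of Mcm2. Over the windows of all the matched genes with a count, the core stood in 4 of 15 called lower, in 0 of 5 called higher and in 13 of 23 not called. Among S phase genes called lower, Mcm3, Mcm5 and Cdt1 hold it and Mcm2, Mcm10 and Pcna do not hold these letters in the window. Rrm2, the 1 S phase gene called higher that has a window, does not hold them either. The S phase genes not called, Mcm6, Mcm7, Cdc6 and Rrm1, all hold the core. A match is a string of letters and not an occupied site.

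The mitotic group held genes called in each direction, at shares near those of all genes, and the pairs compared below were chosen after the values were seen. Ccnb1 (cyclin B1), which activates Cdk1 for entry into mitosis, was at 65.7, 72.2 and 73.0 CPM in Pdk4fl/fl and 27.1, 15.1 and 15.6 CPM in Pdk4SMKO libraries, 3.64-fold lower (log2 fold change -1.87 ± 0.22, SE; adjusted p = 2.11e-05). Ccna2 (cyclin A2), which acts in S phase and G2, was at 11.4, 8.90 and 8.78 CPM against 38.9, 21.4 and 22.9 CPM, 2.86-fold higher (1.52 ± 0.24, SE; adjusted p = 0.000226), and its span overlaps Exosc9. Ccnb2 (cyclin B2) was at 12.9 ± 1.11 and 19.7 ± 8.59 CPM (SD) and their kinase Cdk1 at 26.7 ± 4.99 and 37.0 ± 10.8 CPM, both with overlapping genotypes (adjusted p = 0.0596 and 0.065). Both were called higher with library size alone (1.22 and 1.09). Per kilobase Ccnb1 was 6.93, 9.75 and 10.0 times Ccna2 in Pdk4fl/fl libraries and 0.838, 0.845 and 0.821 of it in Pdk4SMKO libraries, and 2.51, 2.54 and 2.35 times Ccnb2 against 0.416, 0.504 and 0.441. Whether Ccnb1 lies under Ccnb2 in Pdk4SMKO depends on the gene lengths used (3396 and 1541 bases). The counts there were 617, 303 and 318 for Ccnb1 and 673, 273 and 327 for Ccnb2.

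The Aurora kinases differed in direction. Aurka, which builds the spindle poles, was at 42.7, 45.1 and 37.3 CPM against 25.2, 13.5 and 12.1 CPM, 2.46-fold lower (adjusted p = 0.000851), a call not made with library size alone (-0.69). Aurkb, the kinase of the chromosomal passenger complex, was at 7.40, 2.86 and 2.95 CPM against 23.3, 12.1 and 12.1 CPM, 3.60-fold higher (log2 fold change 1.85 ± 0.40, SE; adjusted p = 0.00159). Neither overlapped between genotypes. Pdk4fl/fl replicate 1 was the highest of its genotype for Aurkb, and without it the log2 fold change was 2.44. Aurka to Aurkb per kilobase was 6.71, 18.4 and 14.7 in Pdk4fl/fl and 1.26, 1.30 and 1.16 in Pdk4SMKO libraries. Birc5 (survivin), a partner of Aurkb in that complex, was at 18.9 ± 3.01 and 16.3 ± 6.07 CPM (SD; adjusted p = 0.441).

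Among the kinases of the spindle checkpoint, which holds anaphase back until every kinetochore is attached, Bub1b stood at 138, 142 and 128 CPM against 34.5, 21.7 and 23.1 CPM. It was 5.15-fold lower, the largest fall of the mitotic group (log2 fold change -2.36 ± 0.18, SE; adjusted p = 1.07e-06). Bub1 was at 45.3, 48.05 and 51.8 CPM against 18.3, 10.2 and 9.86 CPM, 3.78-fold lower (adjusted p = 2.72e-05). Ttk, the checkpoint kinase also called Mps1, moved up, at 2.87, 3.02 and 2.80 CPM against 10.9, 4.48 and 5.74 CPM (2.44-fold; adjusted p = 0.00567). Its rise was under the fold limit without Pdk4SMKO replicate 1 (0.83), although no Pdk4SMKO library overlapped a Pdk4fl/fl one. Per kilobase Bub1b was 55.3, 53.9 and 52.7 times Ttk in Pdk4fl/fl and 3.63, 5.56 and 4.61 times Ttk in Pdk4SMKO libraries. Cdc20, the target of the checkpoint and activator of the anaphase-promoting complex, was 2.35-fold lower (46.1 ± 4.71 against 19.6 ± 6.39 CPM, SD; adjusted p = 0.000354) but not called with library size alone (-0.62).

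Motor and centromere proteins were called in each direction. Kif11, the motor that separates the spindle poles, was at 69.5, 69.7 and 62.7 CPM against 38.4, 23.5 and 25.7 CPM, 2.30-fold lower (adjusted p = 0.000149), and was not called with upper-quartile scaling (-0.99) or library size alone (-0.60). Kif20a, a motor of cytokinesis, was at 15.7, 13.4 and 14.2 CPM against 54.6, 33.9 and 31.4 CPM, 2.77-fold higher (adjusted p = 0.000116). The span of Kif20a overlaps Cdc23, which itself was 3.98-fold higher. Cenpf, a large kinetochore protein, was at 13.4, 10.0 and 10.3 CPM against 46.1, 26.4 and 31.3 CPM, 3.08-fold higher (adjusted p = 7.59e-05). Cenpa, the centromeric histone (19.9 ± 3.14 against 23.8 ± 9.08 CPM, SD), and the kinetochore motor Cenpe (20.5 ± 2.35 against 27.8 ± 12.4 CPM) overlapped between genotypes, as did the mitotic kinase Plk1 (11.1 ± 1.47 against 15.3 ± 5.09 CPM). With library size alone Cenpe (1.05) and Plk1 (1.07) were called higher.

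Mki67 and Top2a, both used as marks of dividing cells, were not called. Mki67, which encodes the Ki-67 protein, was at 146, 133 and 92.5 CPM in Pdk4fl/fl and 97.2, 59.1 and 61.4 CPM in Pdk4SMKO libraries (log2 fold change -0.77 ± 0.22, SE; adjusted p = 0.00882). Pdk4SMKO replicate 1 lay above Pdk4fl/fl replicate 3, and without Pdk4SMKO replicate 1 Mki67 was called lower (-1.03). Top2a, the topoisomerase that untangles chromosomes, was at 181, 179 and 140 CPM against 175, 106 and 119 CPM (-0.32; adjusted p = 0.147), with a positive sign under library size alone (0.29). Of the transcription factors of the mitotic program, Foxm1 was at 46.2 ± 8.45 and 39.3 ± 12.8 CPM (SD; adjusted p = 0.353), again of opposite sign with library size alone (0.37). Mybl2 was at 22.8, 20.0 and 12.9 CPM against 13.2, 7.46 and 6.38 CPM, 2.05-fold lower (-1.04 ± 0.30, SE; adjusted p = 0.00864), with the genotypes overlapping. The call of Mybl2 was lost without Pdk4fl/fl replicate 1 (-0.87), Pdk4fl/fl replicate 2 (-0.97), Pdk4SMKO replicate 2 (-0.91) or Pdk4SMKO replicate 3 (-0.83).

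**Figure D5:**
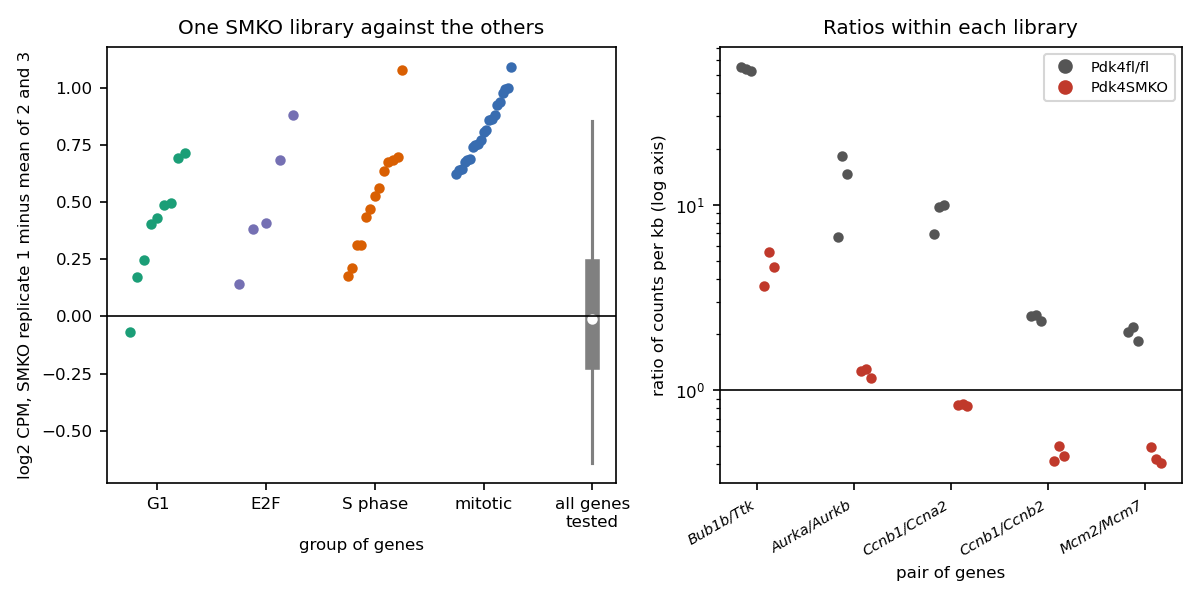
Left, the log2 level in Pdk4SMKO replicate 1 minus the mean of replicates 2 and 3, 1 point a gene, with the median (white point), the 25th to 75th percentile (thick bar) and the 5th to 95th percentile (thin bar) of all genes tested: the mitotic genes lie between 0.62 and 1.09. Right, ratios of levels per kilobase within each library for 5 pairs of genes on a log axis, in which no Pdk4SMKO library reaches a Pdk4fl/fl one and Mcm2 to Mcm7, Ccnb1 to Ccna2 and Ccnb1 to Ccnb2 pass from above to below 1. For Ccnb1 to Ccnb2 the place below 1 rests on the division by gene length.

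As sums over the 21 mitotic genes, the libraries held 965, 954 and 834 CPM in Pdk4fl/fl and 883, 510 and 537 CPM in Pdk4SMKO, so replicate 1 of Pdk4SMKO lay within the Pdk4fl/fl range. As sums over the 13 S phase genes they held 1849, 1926 and 1759 CPM against 826, 613 and 607 CPM, and no library overlapped. Both sums follow their most abundant genes, which were Top2a, Mki67 and Bub1b for mitosis and Mcm2 and Pcna for S phase in Pdk4fl/fl cells.

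A wider list of 51 spindle, kinetochore and chromosome genes, outside the 49, had 14 lower (27.5%, near the 26.5% of all genes), 5 higher (9.80%, against 32.8%) and 32 not called (median log2 fold change -0.18). The condensin subunit Ncapg2 fell from 237 ± 12.8 to 28.4 ± 6.27 CPM (SD, n = 3 each; -3.06) and Cks2, a small subunit of cyclin-dependent kinases, from 96.5 ± 23.2 to 14.4 ± 3.77 CPM (-2.74). Aspm, a spindle pole protein, rose from 2.54 ± 0.55 to 24.7 ± 8.10 CPM (3.28) and Ckap2, a microtubule-binding protein, 5.44-fold to 37.9 ± 13.2 CPM (2.44). Pdk4SMKO replicate 1 stood above the mean of the other Pdk4SMKO libraries for 50 of the 51, and without it 19 were lower and 4 higher. Of 16 subunits and regulators of the anaphase-promoting complex 4 were lower (25%) and 3 higher (18.8%). Anapc7 fell from 220 ± 13.4 to 42.4 ± 2.82 CPM (-2.37) and Cdc16 from 234 ± 38.6 to 78.9 ± 3.57 CPM (-1.57), while Cdc23 rose from 14.9 ± 1.09 to 59.1 ± 5.03 CPM (1.99) and Fzr1, the G1 activator Cdh1, from 13.3 ± 2.10 to 36.1 ± 3.02 CPM (1.44).

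The promoters of 3 mitotic genes are shown because they bear the elements of the late program, or lack them, with RNA in each direction. Bub1b has the largest fold of the matched mitotic genes and Birc5 the smallest, and Ttk, added after the values were seen, rose. Capitals are as above, and the windows lie at chr2:118597961-118598260, chr11:117848987-117849286 and chr9:83834439-83834738, all on the plus strand of GRCm38.p6.
Bub1b: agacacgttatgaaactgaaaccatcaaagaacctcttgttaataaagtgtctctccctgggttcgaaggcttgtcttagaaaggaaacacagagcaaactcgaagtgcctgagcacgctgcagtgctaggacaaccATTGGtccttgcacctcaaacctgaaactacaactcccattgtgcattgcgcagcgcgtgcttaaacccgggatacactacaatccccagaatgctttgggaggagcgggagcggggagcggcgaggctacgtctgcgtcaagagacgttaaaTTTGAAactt
Birc5: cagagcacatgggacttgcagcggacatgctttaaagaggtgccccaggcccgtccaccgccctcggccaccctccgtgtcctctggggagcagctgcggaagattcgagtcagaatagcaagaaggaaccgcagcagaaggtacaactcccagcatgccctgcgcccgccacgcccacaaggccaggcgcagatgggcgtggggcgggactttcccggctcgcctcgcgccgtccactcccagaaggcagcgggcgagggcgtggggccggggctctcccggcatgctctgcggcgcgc
Ttk: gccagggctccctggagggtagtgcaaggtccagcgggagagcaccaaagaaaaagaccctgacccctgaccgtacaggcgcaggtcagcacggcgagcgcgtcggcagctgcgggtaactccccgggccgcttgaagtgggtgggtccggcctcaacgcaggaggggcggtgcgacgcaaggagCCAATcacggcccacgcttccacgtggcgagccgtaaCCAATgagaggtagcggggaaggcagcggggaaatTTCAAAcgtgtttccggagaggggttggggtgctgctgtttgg

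A CHR element stood in 12 of 17 windows of mitotic genes (70.6%) and a CCAAT box in 15 of 17 (88.2%), against 17.9% and 37.4% of all promoters and against 1 of 13 S phase windows for the CHR. In the narrower window from 150 bases before the start the shares were the same 70.6% and 88.2%, against 11.2% and 28.6% of all promoters. The CHR was present on both sides of the split. It stood in 4 of the 7 windows of mitotic genes that fell (Bub1b, Aurka, Cdc20 and Kif11), in 2 of 2 of those that rose (Cenpf and Ttk) and in 6 of 8 of those not called. Bub1 and Ccnb1 fell and hold no CHR letters in the window, and that of Birc5 holds none of the 3 motifs.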

How the data were processed

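RNA of 6 libraries, 3 per genotype, was measured by RNA sequencing. The authors deposited raw counts, 1 whole number for each gene and library. The study's methods name the NEBNext Ultra kit and the labels the SMARTER kit. The aligner, the counting program and the use of strand are not given in the sources used here. The submitters' processing notes name GRCm39, whereas the table's identifiers, coordinates and gene lengths are those of the C57BL/6NJ strain annotation except for 625 rows. The 49 genes, the further lists and the markers were chosen with earlier results of these data known. Every member, and from each further list the 2 called genes that fell most and the 2 that rose most, at a mean of 5 CPM or more in the higher genotype, were named. Of each marker list the genes with the highest mean in either genotype were named, and Tagln, Cnn1, Myh11 and the macrophage markers at 0 were added after the values were seen. Ratios, the Tyms row, the Xist check and the promoters of Mcm5 and Ttk were added after the values were seen.

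Low counts were removed with filterByExpr of edgeR 4.0.16 (R 4.3.3), libraries were scaled by TMM, and genotype was the only term of the quasi-likelihood model. The p-values of all 14085 genes were adjusted by the Benjamini-Hochberg method. Levels are CPM, and levels compared between genes are divided by the table's gene length. Correlations between libraries used log2 CPM with a prior count of 2. A count of 3, the limit that a count of 0 allows, was between 0.132 and 0.227 CPM per library and covers counting error only. Alternatives were scaling by RLE, by the upper quartile or by library size, DESeq2 1.42.0 as the test, dropping the filter or requiring 10 counts in all libraries, no fold limit, the replicate number as a block, and leaving out each library. Promoter sequences came from RefSeq (GRCm38.p6), matched by symbol, and no coordinates were carried between assemblies.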

Additional observations from a re-analysis of the deposited data

How the results depend on the processing

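With library size alone, which moved the median of all genes by 0.60, calls became 1 lower G1 gene, 1 higher E2F gene, 3 lower and 9 higher mitotic genes and 2390 lower genes in all. Upper-quartile scaling (0.21) gave 1 higher E2F gene, and the adjusted p alone 2 lower and 1 higher. Leaving out single libraries gave between 0 and 2 lower E2F genes and between 1 and 2 higher S phase genes. Signs reversed only for members that were not called. With library size alone these were Cdk2 (0.14), Cdc25a (0.55), E2f2 (0.51), E2f3 (0.53), Mcm6 (0.17), Foxm1 (0.37), Birc5 (0.40) and Top2a (0.29), and with upper-quartile scaling Cdc25a (0.16), E2f2 (0.13), E2f3 (0.14) and Birc5 (5e-04). With at least 10 counts in every library they were Cdc25a (0.0432), E2f2 (0.0095) and E2f3 (0.0259), and with RLE scaling and DESeq2 Ccne1 (-0.0136 and -0.0138). Without single libraries the values spanned both signs for Ccne1 (-0.25 to 0.24), Cdc25a (-0.19 to 0.0354), E2f2 (-0.36 to 0.25), Cdc6 (-0.11 to 0.14) and Cenpa (-0.0842 to 0.43). The cause was not tested.

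The replicate numbers are not known to pair cultures, and same-numbered libraries deviated together at a correlation of 0.04, 0.06 and 0.17, of which only the last exceeded 0.1. With the replicate number as a block 3704 genes were lower and 4577 higher, no count of members changed, and Ccne1 reversed (-0.0244). Over all members and alternatives, 606 values kept direction and call, 28 reversed, 19 lost and 19 gained a call. Counting error weighs most on members of low level, such as Ccne2 (2.37 CPM in Pdk4fl/fl), Ttk (2.90 CPM) and E2f2 (3.76 CPM).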
